A study of Mus musculus with 2 samples.

Results

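The genes described here are the Janus kinases (JAKs) and the STAT transcription factors of mouse lung endothelial cells (ECs): Jak1, Jak2, Jak3, Tyk2, Stat2, Stat3, Stat5a, Stat5b and Stat6. They were taken by symbol, and all 9 were found among the 32285 genes listed in both count matrices. Each gene was followed by vessel type in 2 single-cell libraries of wild-type C57BL/6 lungs. The control library came from mice 6 h after a PBS injection into the tail vein, and the B16-F10 6h library from mice 6 h after 400000 B16-F10 cells, a mouse skin melanoma line, in 100 µl of PBS by the same route. The labels give no age or sex, and the methods of the study describe young adult males. Cells of several mice were pooled in each library (2 per treatment by the labels, another number by the methods of the study). Pecam1-positive, Ptprc-negative cells were sorted, and dye-labelled melanoma cells were sorted as well from the injected lungs, so the sorts of the libraries were not identical. Each group was 1 library, so no test between the groups was possible. All intervals given are 95% intervals for counting error alone and do not hold the variation between mice, lungs, sorts or libraries.

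JAKs are tyrosine kinases bound to the inner side of cytokine receptors that lack a kinase of their own. When a cytokine joins its receptor chains, the kinases phosphorylate each other, the receptor and then STAT proteins, which pair, enter the nucleus and bind DNA. Signals of the IL-6 family run mainly through Jak1, Jak2, Tyk2 and Stat3, type I interferon through Jak1, Tyk2 and Stat2, IL-4 through Jak1, Jak3 and Stat6, and growth hormone through Jak2 and the STAT5 proteins. The pathway is switched on by phosphorylation, which RNA counts do not show. The values below are transcript levels only.

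The genes lie on 6 chromosomes of GRCm38. Stat5b (chr11:100780731-100850724, minus strand), Stat5a (chr11:100859351-100885169, plus strand) and Stat3 (chr11:100885098-100939540, minus strand) form one block of 158810 bases, in which the ends of Stat5a and Stat3 overlap by 72 bases on opposite strands. Stat6 (chr10:127642986-127660957) and Stat2 (chr10:128270559-128292849), both on the plus strand, lie 609601 bases apart. Jak2 (chr19:29251828-29313080, plus strand) overlaps no annotated gene. Jak1 lies at chr4:101152367-101265282 and Tyk2 at chr9:21104068-21131243, both on the minus strand. Jak3 (chr8:71676296-71690575, plus strand) shares 404 exon bases with Insl3 on the same strand, and 314 of its 5521 windows of 91 bases (5.69%) occur in Insl3 as well, so that reads from there cannot be given to 1 gene. Insl3 had 7 unique molecular identifiers (UMIs) in the gCap-like ECs of each library. Stat5a and Stat5b share 300 such windows (3.92% and 5.42% of their own), a small stretch in which a read cannot tell the paralogs apart. Tyk2 shares 554 exon bases with the antisense transcript 1700084C06Rik.

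Promoter windows (RefSeq, GRCm38.p6, 250 bases before to 50 after a start, 5′ to 3′ on the strand of the gene) are printed for 3 genes, Jak2 and Stat3 because their transcripts differed most clearly between libraries or clusters, and Stat2 because it alone among the 9 genes held a letter match to a motif of the pathway. Capitals mark matches to the core of the interferon-stimulated response element (GAAA, any 2 bases, GAAA) and to a STAT6-type site (TTC, any 4 bases, GAA), searched on both strands. The first match in Stat2 begins at base 29 of its window and the second at base 41, and they do not overlap. Of 32851 promoter windows of this length, 3.44% held the response element core, 6.95% the STAT6-type site and 8.30% the STAT site TTCNNNGAA, which was in no window of the 9 genes. A match describes letters only. G and C made up 81.0% of the Jak2 window, 60.7% of that of Stat3 and 59.3% of that of Stat2, against a median of 52.7% over all windows. The windows lie at chr19:29251553-29251852 (plus strand, Jak2), chr11:100939491-100939790 (minus strand, Stat3) and chr10:128270248-128270547 (plus strand, Stat2).
Jak2: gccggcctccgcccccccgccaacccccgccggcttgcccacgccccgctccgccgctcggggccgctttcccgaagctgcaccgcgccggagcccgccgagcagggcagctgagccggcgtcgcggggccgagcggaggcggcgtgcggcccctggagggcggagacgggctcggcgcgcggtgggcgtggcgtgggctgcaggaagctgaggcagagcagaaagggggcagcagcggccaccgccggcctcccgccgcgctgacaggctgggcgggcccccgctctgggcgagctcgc
Stat3: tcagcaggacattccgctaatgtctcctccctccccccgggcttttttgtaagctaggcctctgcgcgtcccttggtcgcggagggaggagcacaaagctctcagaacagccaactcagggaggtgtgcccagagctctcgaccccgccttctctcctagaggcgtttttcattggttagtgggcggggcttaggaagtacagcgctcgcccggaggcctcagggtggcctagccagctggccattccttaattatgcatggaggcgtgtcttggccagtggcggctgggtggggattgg
Stat2: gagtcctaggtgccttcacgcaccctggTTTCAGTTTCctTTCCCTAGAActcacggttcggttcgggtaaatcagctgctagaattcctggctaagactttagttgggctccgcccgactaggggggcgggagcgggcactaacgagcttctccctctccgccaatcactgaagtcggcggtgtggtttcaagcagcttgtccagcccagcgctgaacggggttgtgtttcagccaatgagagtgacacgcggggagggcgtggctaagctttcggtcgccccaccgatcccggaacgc

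Of the barcodes with 1000 to 5000 genes and under 20% mitochondrial UMIs, 7859 control and 7839 B16-F10 6h cells remained after doublet removal, with medians of 7514 and 8569 UMIs per cell. Clustering, in which none of the 9 genes was used, gave 5 vessel classes named from markers. General capillary cells (gCap-like ECs, 4830 control and 4431 B16-F10 6h cells) were the largest class, and aerocytes (aCap-like ECs, 1449 and 969) are the wide thin capillary cells of gas exchange. There were 188 and 140 artery-like, 337 and 319 vein-like, and 58 and 51 lymphatic (LEC-like) ECs. The UMIs of each class were summed per library, 36121997 and 38650165 in gCap-like ECs but 480926 and 481303 in LEC-like ECs, and a level is given as counts per 1000000 UMIs (CPM). All 8 pan-endothelial markers were found in at least 50% of the cells of every gCap-like, aCap-like, artery-like and vein-like cluster, and 7 of 8 in the LEC-like cluster. The same clusters did not fill a class in both libraries. Of the aCap-like ECs, 792 B16-F10 6h cells but 170 control cells were in a cluster led by Cyp1a1, and 662 and 617 control cells in clusters led by Fibin and Tmeff2. A gCap-like cluster led by Lalba held 996 B16-F10 6h and 68 control cells. The libraries shared 18 cell barcodes, 0.229% of the control cells.

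**Figure D1:**
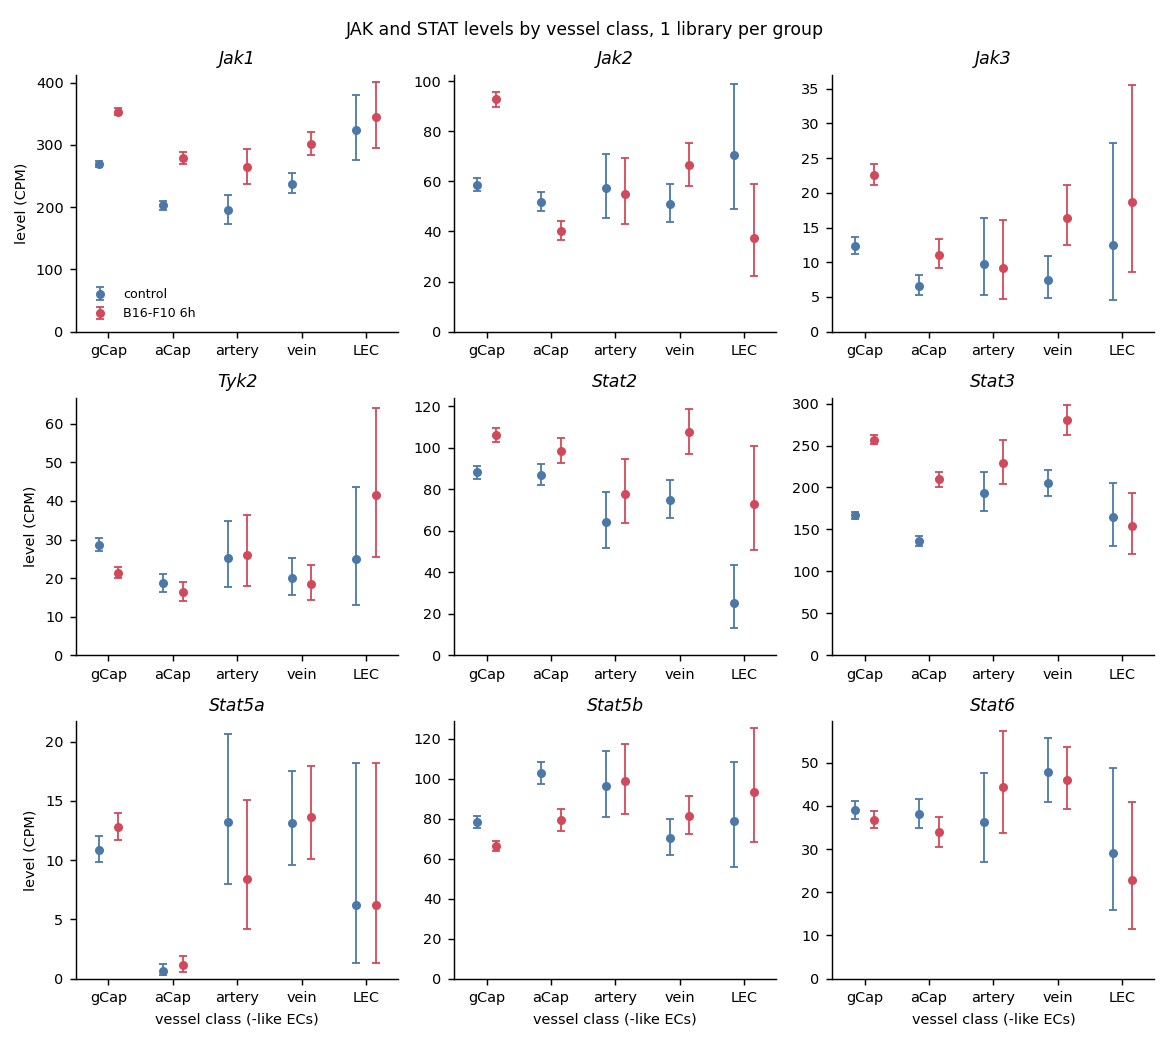
Level (CPM, linear axis from 0) of each gene in the 5 vessel classes, with 1 library per group, control in blue and B16-F10 6h in red. Points are class sums and bars are exact 95% Poisson intervals for counting error only. Stat3 stood at 167 CPM in control and 257 CPM in B16-F10 6h gCap-like ECs, and Stat5a was near 1 CPM in aCap-like ECs of both libraries.

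Jak1, the kinase shared by the interferon, IL-6 and common gamma chain receptors, was higher in the B16-F10 6h library in 4 of 5 vessel classes, with intervals above 0. In gCap-like ECs its level was 269 CPM (264 to 274) in the control and 353 CPM (347 to 359) in the B16-F10 6h library, a log2 ratio of 0.39 (0.36 to 0.43). Artery-like ECs had a log2 ratio of 0.44, aCap-like ECs one of 0.46 and vein-like ECs one of 0.34. For LEC-like ECs the levels were 324 and 345 CPM, and the interval of the log2 ratio ran from -0.24 to 0.41. Over 11 alternatives that log2 ratio lay between -0.25 and 0.13, so no direction could be given. In the control library the Jak1 level ran from LEC-like over gCap-like, vein-like and aCap-like down to artery-like ECs, and only aCap-like and artery-like ECs did not differ from their neighbour in that order beyond counting error.

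Jak2, the kinase of the growth hormone, erythropoietin and interferon gamma receptors, was the only one of the 9 genes with intervals on opposite sides of 0 in different vessel classes. In gCap-like ECs it stood at 58.7 CPM (56.2 to 61.2) in the control and at 92.7 CPM (89.7 to 95.8) in the B16-F10 6h library, 1.58-fold higher (log2 ratio 0.66, 0.58 to 0.74). In vein-like ECs the levels were 51.1 and 66.4 CPM (log2 ratio 0.38, 0.09 to 0.67). In aCap-like ECs the order was turned, with 51.8 CPM in the control and 40.3 CPM in the B16-F10 6h library (log2 ratio -0.36, -0.54 to -0.19). The aCap-like log2 ratio was -0.04 when the low-depth cluster led by Tmeff2 was left out and -0.07 with no upper limit of genes per cell. In LEC-like ECs Jak2 had 34 UMIs in the control and 18 in the B16-F10 6h library (log2 ratio -0.92, -1.83 to -0.05), and the log2 ratio was -0.08 when each cell was thinned to 2000 UMIs. In artery-like ECs the levels were 57.2 and 55.0 CPM, on 82 and 72 UMIs, and the log2 ratio (-0.06) was -0.72 with thinned cells, 0.51 at a clustering resolution of 1.6 and 0.58 with no doublets removed, so no direction could be given. Direct neighbours in the control order did not differ in Jak2 beyond counting error, but aCap-like ECs were below gCap-like ECs there (log2 ratio -0.18, -0.31 to -0.05). In the B16-F10 6h library gCap-like ECs exceeded the next class, vein-like ECs, by a log2 ratio of 0.48 (0.29 to 0.68).

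Jak3, which sits on the common gamma chain of the IL-2, IL-4 and IL-7 receptors and is best known from lymphocytes, was measured at low levels in ECs. Its level in gCap-like ECs was 12.4 CPM (11.3 to 13.6) in the control and 22.6 CPM (21.2 to 24.2) in the B16-F10 6h library, 1.83-fold higher (log2 ratio 0.87, 0.71 to 1.04). It was also higher in aCap-like ECs (6.63 and 11.1 CPM, log2 ratio 0.74, but 0.40 with cells thinned to 2000 UMIs, 0.46 without cells that held a marker of other cell types and 1.30 with the same cluster makeup in both libraries) and in vein-like ECs (7.42 and 16.4 CPM, log2 ratio 1.14, 0.46 to 1.87). Artery-like ECs had 14 and 12 Jak3 UMIs and LEC-like ECs 6 and 9, too few for a direction. Lymphoid-like cells, themselves few after a sort against Ptprc, had 0 Jak3 UMIs in the control and 3 in the B16-F10 6h library (5.68 CPM, 1.17 to 16.6). Barcodes with 1 to 100 UMIs, which hold free RNA, carried Jak3 at 14.1 and 25.9 CPM, as much as gCap-like ECs.

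Tyk2, the kinase of the type I interferon and IL-12 receptor families, was lower in the B16-F10 6h library in gCap-like ECs. Its level there was 28.6 CPM (26.9 to 30.4) in the control and 21.3 CPM (19.9 to 22.8) in the B16-F10 6h library (log2 ratio -0.43, -0.56 to -0.29). Without the cluster led by Lalba the levels were 28.6 and 24.5 CPM (log2 ratio -0.22). Of the 7 gCap-like clusters, 0 had a log2 ratio above 0, and 3 had an interval below 0. The interval of its log2 ratio held 0 in each of the other vessel classes. Against gCap-like ECs of the same library, Tyk2 was lower in aCap-like ECs of the control (log2 ratio -0.62, -0.83 to -0.42) and of the B16-F10 6h library (-0.38, -0.62 to -0.14), and lower in vein-like ECs of the control (-0.52, -0.89 to -0.17). It was higher in LEC-like ECs of the B16-F10 6h library (0.96, with an interval above 0, on 20 UMIs), while no direct neighbours in the order of levels differed beyond counting error.

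Stat3, the main STAT of the IL-6 family, was higher in the B16-F10 6h library in 4 of 5 vessel classes. It stood at 167 CPM (163 to 171) in control and at 257 CPM (252 to 262) in B16-F10 6h gCap-like ECs, 1.54-fold higher (log2 ratio 0.62, 0.58 to 0.67). The log2 ratio was as large in aCap-like ECs (136 and 210 CPM, 0.62, 0.53 to 0.71), 0.45 (0.31 to 0.59) in vein-like ECs and 0.24 in artery-like ECs, where the interval began just above 0. LEC-like ECs had 79 and 74 Stat3 UMIs and a log2 ratio of -0.10 (-0.57 to 0.38). Vein-like ECs were highest in both libraries, above artery-like ECs within counting error in the control and above gCap-like ECs by a log2 ratio of 0.12 (0.03 to 0.22) in the B16-F10 6h library.

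Stat2, a STAT of the type I interferon response which the study also lists among its interferon markers, was higher in the gCap-like, aCap-like and vein-like ECs of the B16-F10 6h library. Its level was 88.1 CPM in control and 106 CPM in B16-F10 6h gCap-like ECs (log2 ratio 0.27, 0.20 to 0.34) and 86.9 and 98.6 CPM in aCap-like ECs (log2 ratio 0.18). Within the 3 aCap-like clusters the log2 ratio was 0.35 to 0.90, with 2 intervals above 0, and the class value was 0.59 with the same cluster makeup in both libraries and 0.05 with thinned cells. In vein-like ECs it was 75.0 and 108 CPM (log2 ratio 0.52, 0.29 to 0.75), under 0.5 in 5 of 11 alternatives and lowest, at 0.38, with thinned cells. LEC-like ECs had 12 Stat2 UMIs in the control and 35 in the B16-F10 6h library (25.0 and 72.7 CPM, log2 ratio 1.54, 0.56 to 2.62), under the minimum of 50 UMIs over both sums that a gene needed to enter the counts of genes. In the control library LEC-like ECs were below artery-like ECs, the next class in the order, by a log2 ratio of 1.36 (0.49 to 2.37).

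The paralogs Stat5a and Stat5b, which serve growth hormone, prolactin and IL-2 type receptors, differed in their vessel types. Stat5a had 8 UMIs in the control and 12 in the B16-F10 6h library in all aCap-like ECs (0.610 and 1.10 CPM), against 10.9 and 12.8 CPM in gCap-like ECs and 13.1 and 13.6 CPM in vein-like ECs. The free RNA estimated in aCap-like ECs would bring 13.5% and 14.3% of that small amount. Stat5b stood at 103 CPM (97.1 to 108) in aCap-like ECs of the control library, against 78.1 CPM in gCap-like ECs and 96.3 CPM in artery-like ECs, which did not differ from aCap-like ECs beyond counting error. By cluster, the control aCap-like level was 140 CPM in the low-depth cluster led by Tmeff2 and 97.1 and 83.6 CPM in the others. Between the libraries Stat5b was lower in B16-F10 6h capillaries, with 66.2 CPM in gCap-like (log2 ratio -0.24, -0.32 to -0.16) and 79.2 CPM in aCap-like ECs (log2 ratio -0.37, -0.50 to -0.25), while the interval held 0 in the other vessel classes. The aCap-like log2 ratio was -0.13 when the cluster led by Tmeff2 was left out. Stat5a had a log2 ratio of 0.24 (0.04 to 0.43) in gCap-like ECs.

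Stat6, the STAT of IL-4 and IL-13, had no log2 ratio whose interval left 0 in any vessel class. Its levels in gCap-like ECs were 39.1 and 36.8 CPM, and the interval of the log2 ratio ran from -0.19 to 0.02. It was highest in vein-like ECs of both libraries (47.9 and 46.1 CPM), above gCap-like ECs in the control by a log2 ratio of 0.29 (0.05 to 0.53).

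**Figure D2:**
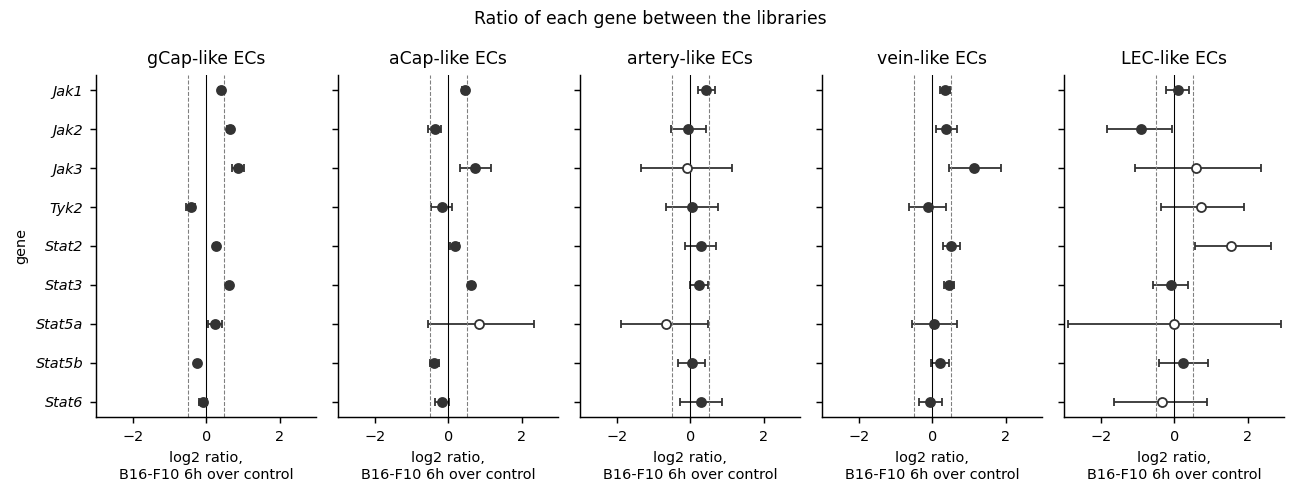
Log2 ratio of each gene, B16-F10 6h over control, in the 5 vessel classes (horizontal axis), with exact 95% intervals for counting error only. Dashed lines mark -0.5 and 0.5, and open points mark genes with under 50 UMIs over both sums. Jak2 lies at 0.66 in gCap-like and at -0.36 in aCap-like ECs, and Stat3 at 0.62 in both.

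A log2 ratio of at least 0.5 or at most -0.5 was called past the fold, over all genes with at least 50 UMIs in both sums of a class together. In gCap-like ECs 3 of the 9 genes were higher past the fold (Jak2, Jak3 and Stat3) beside 9.87% of 13216 genes, and 0 of 9 were lower beside 12.6%. The interval lay above 0 for 6 of the 9 genes, beside 29.0% of all genes, and below 0 for 2 (Tyk2 and Stat5b), beside 34.8%. In aCap-like ECs 2 of 8 measured genes were higher past the fold (Jak3 and Stat3), beside 9.35%, and 0 lower, beside 11.1%, while 4 intervals lay above 0, beside 27.9%, and 2 below, beside 27.5%. In vein-like ECs 2 of 9 were higher (Jak3 and Stat2), beside 7.20%, and 0 lower, beside 8.54%, while 5 intervals lay above 0, beside 13.4%, and 0 below, beside 16.1%. Artery-like ECs had 0 of 7 past the fold in either direction, beside 12.3% higher and 10.7% lower, with 2 intervals above 0, beside 15.3%, and 0 below, beside 13.7%. LEC-like ECs had 0 of 4 higher, beside 11.3%, and 1 lower (Jak2), beside 11.1%, with 0 intervals above 0, beside 10.1%, and 1 below, beside 10.4%. With all ECs summed, 3 of 9 were higher, beside 9.83%, and 0 lower, beside 14.6%, with 6 intervals above 0, beside 29.5%, and 3 below, beside 38.6%. The median log2 ratio of the 9 genes in gCap-like ECs was 0.27, and that of all genes measured there -0.04. In vein-like ECs these medians were 0.34 and -0.03, and in artery-like ECs, for 7 measured genes, 0.24 and 0.02. They did not stand apart in aCap-like ECs (0.005 and 0.007, 8 measured genes) or LEC-like ECs (-0.003 and -0.005, 4 measured genes).

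The Jak2 difference of gCap-like ECs lay mostly in the cluster led by Lalba, and those of Stat3 and Jak3 did not. The 10 leading genes of that cluster include Inhbb, Scarb1 and Pim3, and 7 of the 10 are on the study's marker list of reactive capillary cells (rCap), which was drawn partly from these libraries. In the B16-F10 6h library it held 22.5% of gCap-like ECs and 24.2% of their UMIs but 51.3% of their Jak2 UMIs. Jak2 stood at 196 CPM in these cells and at 59.5 CPM in the other B16-F10 6h gCap-like ECs, close to the 58.3 CPM of the other control gCap-like ECs. The B16-F10 6h cells of that cluster also exceeded the other gCap-like ECs of the library in Jak1 (475 against 314 CPM), Stat3 (333 against 233 CPM), Jak3 (31.2 against 19.9 CPM) and Stat2 (113 against 104 CPM). Tyk2, Stat5b (57.2 against 69.1 CPM) and Stat6 (33.2 against 38.0 CPM) were lower there. The 68 control cells of the cluster exceeded the other control gCap-like ECs too, in Jak1 (351 against 268 CPM) and Stat3 (230 against 166 CPM). The same held for Stat2 (124 against 87.6 CPM) and Jak2 (82.7 against 58.3 CPM). Stat5b was lower in them (51.2 against 78.5 CPM), and the intervals held 0 for Jak3, Tyk2, Stat5a and Stat6. Without that cluster the log2 ratio of Jak2 in gCap-like ECs was 0.029, against 0.23 for Jak1, 0.49 for Stat3 and 0.70 for Jak3.

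Over the 7 gCap-like clusters, each with at least 50 cells of either library, the log2 ratio of Stat3 was between 0.34 and 0.79 with every interval above 0, and that of Jak3 between 0.43 and 0.98 with 6 of 7 intervals above 0. Jak2 ranged from -0.32 to 1.25, with 2 intervals above 0 (the clusters led by Lalba and Adgrl3) and 1 below 0 (the cluster led by Esm1). In the cluster led by Adgrl3, of low depth (median 3798 UMIs), Jak2 was 101 CPM in the control and 134 CPM in the B16-F10 6h library. Tyk2 went the other way in the cluster led by Lalba, with 11.3 CPM in the B16-F10 6h library against 24.5 CPM in the other gCap-like ECs of that library. The 68 control cells of the cluster had 42 Jak2 UMIs (82.7 CPM, log2 ratio of the libraries within the cluster 1.25, 0.81 to 1.73). In the 3 aCap-like clusters Stat3 was 0.36 to 0.74 and Jak2 -0.88 to 0.03, with 1 interval below 0, in the cluster led by Tmeff2 (median 5168 UMIs, 17 Jak2 UMIs in the B16-F10 6h library).

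**Figure D3:**
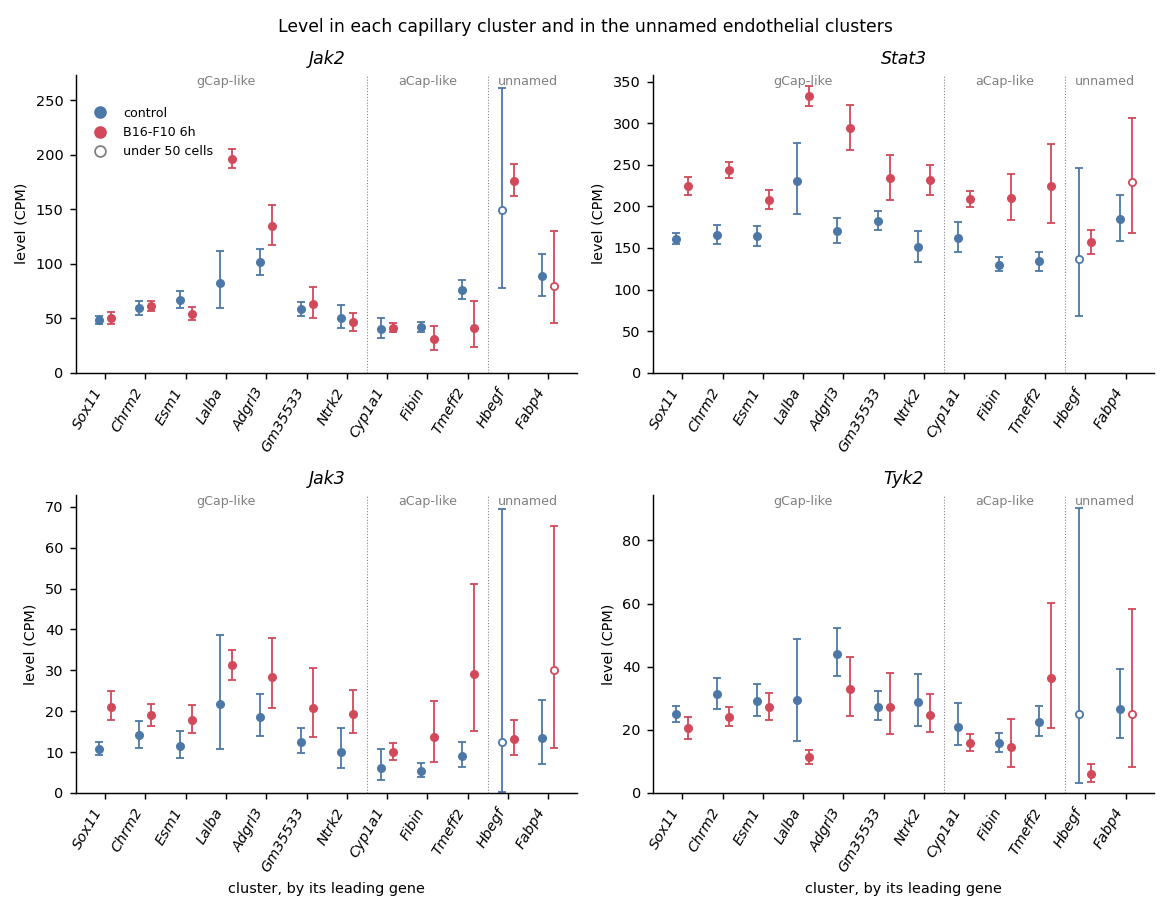
Level (CPM, linear axis from 0) of Jak2, Stat3, Jak3 and Tyk2 in each gCap-like, aCap-like and unnamed endothelial cluster, named by its leading gene, with exact 95% Poisson intervals and open points for under 50 cells. Jak2 in B16-F10 6h cells reached 196 CPM in the cluster led by Lalba and 176 CPM in that led by Hbegf, while Stat3 was higher in B16-F10 6h cells of every capillary cluster.

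A second cluster of mostly B16-F10 6h cells (313 against 8), led by Hbegf, was endothelial but held too few vessel markers for a name. Its cells had Jak2 at 176 CPM, above the 79.2 CPM of all other ECs of the library, but Stat3 at 157 CPM, below their 247 CPM. Stat2 (31.4 against 104 CPM), Tyk2 (5.89 against 20.5 CPM), Stat5b (29.4 against 70.8 CPM) and Stat6 (20.9 against 37.0 CPM) were also lower there. These values describe 1 cluster in 1 library.

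Within each library the gCap-like ECs were also split in tertiles by a score. It was the summed UMIs of 44 of the study's rCap markers, chosen partly on these libraries, after each cell was thinned to 2000 UMIs. None of the 9 genes is among these markers. The median score was 20 UMIs in the control and 36 UMIs in the B16-F10 6h library, and the tertiles are ranges, since 1442 of 4768 control and 610 of 4403 B16-F10 6h cells lay within 1 UMI of a limit. In the B16-F10 6h library Jak2 was 49.4 CPM in the low, 72.7 CPM in the middle and 165 CPM in the high tertile (high over low, log2 ratio 1.74, 1.48 to 2.01). Full depths were alike, with medians of 8522, 8260.5 and 8564 UMIs per cell. In the control library Jak2 ran the other way, from 69.8 over 58.2 to 52.0 CPM (log2 ratio -0.42, -0.72 to -0.12), a difference that was -0.22 (-0.46 to 0.01) when cells were thinned to 4000 UMIs.

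The other genes differed less along the score. In the B16-F10 6h library Stat3 was 224 CPM in the low tertile and 324 CPM in the high tertile (log2 ratio 0.53, 0.39 to 0.68), Jak1 297 and 420 CPM (0.50) and Stat2 98.8 and 129 CPM (0.38). Tyk2 was 23.6 CPM in the low and 13.6 CPM in the high tertile (log2 ratio -0.80, -1.40 to -0.22), and Stat5b 79.1 and 56.0 CPM (-0.50). Jak3, Stat5a and Stat6 had intervals that held 0, but with 4000 UMIs per cell the interval of Jak3 lay above 0 (20.4 and 31.8 CPM, log2 ratio 0.64, 0.30 to 0.99). In the control library Stat3 (162 and 188 CPM, log2 ratio 0.22, 0.05 to 0.39) and Stat2 (87.1 and 104 CPM, 0.25, 0.02 to 0.49) were also higher in the high tertile. Apart from Jak2, the intervals of the other genes held 0 there. With 4000 UMIs per cell the control log2 ratios were 0.22 for Stat3, 0.35 for Stat2, 0.15 for Jak1 and -0.35 for Stat6, with intervals off 0. The low tertile of the B16-F10 6h library had Stat3 at 224 CPM and Jak3 at 21.9 CPM, against 188 and 12.9 CPM in the high tertile of the control library, while Jak2 was 49.4 and 52.0 CPM in these cells, with overlapping intervals. The first held scores up to 30 UMIs and the second scores above 23 UMIs, so the score ranges of these tertiles overlap.

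**Figure D4:**
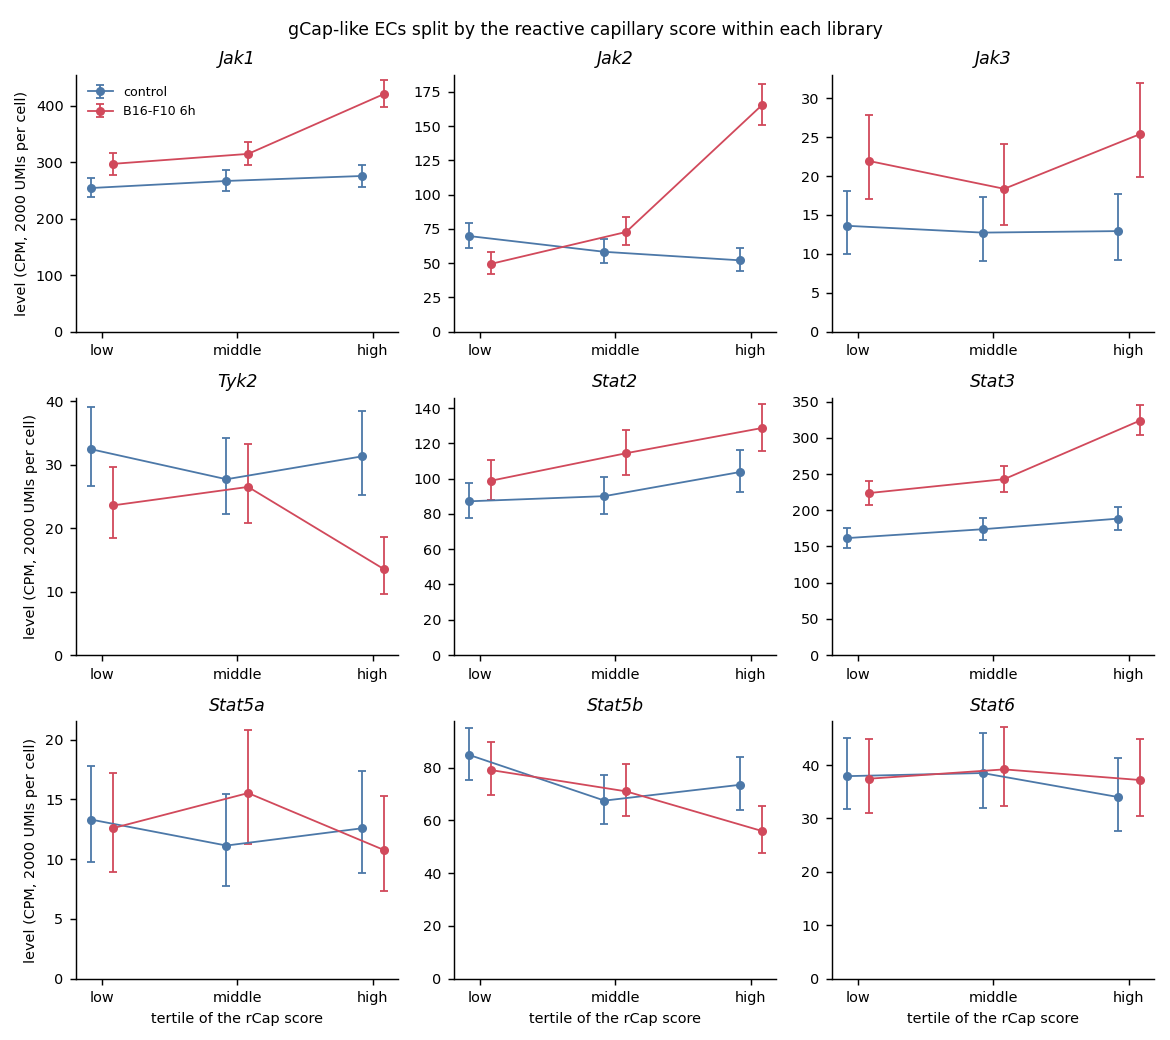
Level (CPM after thinning to 2000 UMIs per cell, linear axis from 0) in the low, middle and high tertile of the rCap score, set within each library, with exact 95% Poisson intervals. Jak2 in the B16-F10 6h library goes from 49.4 to 165 CPM, and Stat3 is higher in the B16-F10 6h library in all tertiles.

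Counted per cell at 2000 UMIs, 10.7% of control gCap-like ECs (511 of 4768, exact binomial interval 9.85% to 11.6%) and 15.5% of B16-F10 6h gCap-like ECs (684 of 4403, 14.5% to 16.6%) had a Jak2 UMI. For Stat3 the shares were 28.6% and 39.3%. Without thinning they were 30.4% and 40.6% for Jak2, at median depths of 7293.5 and 8437 UMIs. In melanoma-like cells of the B16-F10 6h library at 2000 UMIs, a Jak2 UMI was found in 0 of 77 cells, which allows a share of up to 3.90% by a floor of 3 counts (2.56% of cells had one without thinning), and a Stat3 UMI in 6.49% (median depth 8039.5 UMIs).

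The lists of the pathway were described by the same counts. Of 36 receptor genes that bind JAKs, 21 were measured in gCap-like ECs, 7 were higher and 2 lower past the fold (beside 9.87% and 12.6% of all genes measured there), with a median log2 ratio of 0.07. Of the 36 genes 2 are rCap markers of the study, chosen partly on these libraries, so the count is not independent evidence of a direction. Il4ra, the IL-4 receptor, stood at 154 and 428 CPM (log2 ratio 1.47, 1.43 to 1.52). Osmr, the oncostatin M receptor, which the study names as an rCap marker, stood at 67.1 and 144 CPM (1.11). Csf2ra and Il27ra, at 1.55 and 0.526 CPM in the control, had log2 ratios of 0.68 and 1.30. The 2 lower genes were Ghr, the growth hormone receptor (1056 and 742 CPM, -0.51), and Epor (33 and 24 UMIs, with an interval that held 0). Of the 21 receptor genes, 11 had an interval above 0 (beside 29.0% of all genes) and 7 one below 0 (beside 34.8%). Of 20 brakes, 19 were measured, 4 were higher (beside 9.87%) and 1 lower (beside 12.6%), with a median of 0.13. Socs3, the inhibitor induced by Stat3, had 2250 and 18791 UMIs (62.3 and 486 CPM, log2 ratio 2.96, 2.90 to 3.03), Socs1 a log2 ratio of 1.04 and the phosphatase Ptpn1 one of 0.76, whereas Pias3, an inhibitor that binds Stat3, was lower (18.0 and 10.3 CPM, -0.80).

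Of 15 partners and adaptors, all measured, 1 was higher (beside 9.87%) and 0 lower (beside 12.6%) past the fold (median 0.03). That gene was Sh2b2, an adaptor of the JAK2-binding SH2B family, at 1.41 and 7.87 CPM (log2 ratio 2.48), followed by Stap2 (0.46), Jun (0.39) and the coactivator Ep300 (-0.38). Of 24 textbook STAT targets, 23 were in the matrices and 22 measured, of which 15 were higher (beside 9.87%) and 0 lower (beside 12.6%) past the fold, with a median of 0.74. Besides Socs3 they were led by Myc (18 and 578 UMIs, log2 ratio 4.91, 4.23 to 5.67), Bcl3 (18.1 and 119 CPM, 2.72) and Fos (56.1 and 275 CPM, 2.29), genes that other pathways and the stress of cell isolation also switch on. Of this list 5 genes are rCap and 5 interferon markers of the study, chosen partly on these libraries, so its count is not independent evidence of a direction. The median of the targets was 0.37 in LEC-like, 0.50 in artery-like and 0.69 in both aCap-like and vein-like ECs.

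Over the 10 sums of vessel class and library, the genes whose log2 CPM was most like that of Stat3 were Socs3 (Pearson r = 0.97), Cebpd (0.95) and Junb (0.95), among 5925 genes with at least 10 UMIs in each sum. For Jak2 they were Snrnp40 (0.83), Hnrnpc (0.79) and Trabd (0.77), and for Jak1 Ncl (0.94), Ruvbl2 (0.93) and Lsm4 (0.91). The nearest gene to Tyk2 was Chd8 (0.96), to Stat2 Syngr2 (0.98), to Stat5b Cdip1 (0.91) and to Stat6 Slc43a3 (0.94). The next were Oma1 and Zfx for Tyk2, Saysd1 and Ppdpf for Stat2, Akap7 and Cachd1 for Stat5b, and Tgoln1 and Kdsr for Stat6. Jak3 and Stat5a had too few UMIs in some sums. The sums of 1 library share its preparation, and these values are descriptions. Among the 9 genes themselves, Jak2 and Stat3 had an r of 0.45 over the 10 sums.

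Melanoma-like cells, found almost wholly in the B16-F10 6h library (78 cells against 1), had 36 Jak1 UMIs and fewer of the other genes, with Jak1 at 43.5 CPM, Stat3 at 20.5 CPM, Jak2 at 3.62 CPM (3 UMIs) and Stat2 and Stat5a at 0 UMIs of 828086, which allows up to 3.62 CPM by a floor of 3 counts. In gCap-like ECs the 8 melanoma markers summed to 1.36 CPM in the control, with 3 of them at 0, and to 33.0 CPM in the B16-F10 6h library, with none at 0. Ptprc had 11 and 49 UMIs there. The 8 neutrophil markers summed to 2.93 and 7.45 CPM in the same cells, the macrophage/monocyte markers to 19.4 and 33.4 CPM, the lymphoid markers to 1.61 and 1.91 CPM and the platelet markers to 41.7 and 45.4 CPM. Epithelial markers summed to 50.4 and 96.6 CPM, mural markers to 33.6 and 58.9 CPM and fibroblast markers to 11.4 and 21.1 CPM. Erythroid markers summed to 1203 and 1327 CPM in gCap-like ECs but to 522 and 3286 CPM in vein-like ECs and to 1995 and 1095 CPM in aCap-like ECs. Their part in the differences between the libraries was not tested. In gCap-like ECs without a UMI of 12 defining markers of other cell types (3851 and 2274 cells), the log2 ratios were 0.62 for Jak2, 0.62 for Stat3 and 0.90 for Jak3. By the epithelial genes, free RNA made up 1.45% of the UMIs of gCap-like ECs in the control and 2.08% in the B16-F10 6h library, and it would bring at most 2.38% of the level of any of the 9 genes there.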

How the data were processed

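The authors deposited raw UMI counts by gene and barcode of 10x 3′ libraries, without normalization. The labels name Cell Ranger 7.2.0, Seurat 4.4.0 and mm10, while the methods of the study name an earlier Cell Ranger. Whether intron reads were counted is not stated in the sources used here, so levels of long genes such as Jak1 may or may not include them. Totals were 85794655 (control) and 104978816 UMIs (B16-F10 6h). A cell needed 1000 to 5000 genes and less than 20% of UMIs from mitochondrial genes. Scrublet (scanpy 1.11.5) scores removed 535 (6.37%) and 482 (5.79%) cells as doublets. Cells were clustered with leidenalg 0.10.2 (resolution 0.8, 26 clusters), with the JAK-STAT, rCap and interferon lists left out of the variable genes. Classes were named from marker lists, by thresholds chosen once a first clustering was known, and 792 and 1385 cells of clusters with markers of several cell types were left out. UMIs were summed per class and library. Intervals are exact Poisson for levels and exact conditional binomial for ratios (scipy 1.17.1), without pseudocount. Their code was checked on simulated Poisson counts, the model the intervals assume, which hold no variation between cells or mice. With 1 library per group no test was run. Named were all 9 genes, the 4 genes per list with the largest absolute log2 ratio in gCap-like ECs, and the 3 genes most like each of the 9 in pattern. The 2 receptor genes lower past the fold were named as well. The 9 genes and the lists were chosen with earlier results of these data known. Alternatives were other cell, doublet, clustering, scaling, depth and free RNA choices. Coordinates are of GENCODE M21 on GRCm38.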

Additional observations from a re-analysis of the deposited data

Results flagged for a closer look

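The log2 ratio of Jak2 (B16-F10 6h over control) went in opposite directions in different vessel classes, at 0.66 in gCap-like and 0.38 in vein-like ECs against -0.36 in aCap-like and -0.92 in LEC-like ECs. With 1 library per group this difference between classes was not tested. The aCap-like value rested on a cluster of low depth that held 617 control and 75 B16-F10 6h cells, and the LEC-like value on 34 and 18 UMIs.

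Barcodes outside the limits carried differences too, but not for the same genes in every set. In 348 control and 645 B16-F10 6h barcodes with over 5000 genes, which can hold more than 1 cell, the log2 ratios were 0.34 for Jak1, 0.53 for Jak2, 0.97 for Jak3, 0.30 for Stat2 and 0.41 for Stat3. Shallow barcodes of over 100 UMIs but fewer than 300 genes hold free RNA and broken cells. The log2 ratios there were 0.40 for Jak1, 0.41 for Jak2, 1.28 for Jak3, 0.34 for Stat2 and 0.50 for Stat3. Stat5b was lower with over 5000 genes (-0.41), and its interval held 0 in the shallow barcodes. Another set held 1750 control and 2590 B16-F10 6h barcodes with at least 300 but under 1000 genes. Its intervals held 0 for Jak1 (0.13), Jak2 (-0.30), Stat2 (-0.33) and Stat3 (0.06). In that set Jak3 was higher (1.54, on 7 and 31 UMIs) and Stat5b lower (-0.45, -0.86 to -0.04).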

How the results depend on the processing

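No paired analysis was possible because there was only 1 library per group. Of 442 log2 ratios of the 9 genes under up to 14 alternatives per class, 409 kept their value within the counting interval, 33 did not and 0 turned a direction whose interval had left 0. In gCap-like ECs the log2 ratio of Stat3 was 0.57 with cells thinned to 2000 UMIs. With all endothelial cells summed Jak2 was 0.56 and Stat3 0.57. The next alternatives were chosen after seeing the data. With the same cluster makeup in both libraries Jak2 was 0.32, Jak3 0.69 and Stat3 0.52, and without the cluster led by Lalba they were 0.029, 0.70 and 0.49. Leaving out low-depth clusters and requiring no UMI of 12 defining markers of other cells were also chosen then. The planned choice of cells without a UMI of any listed marker was not run, since it left 22 and 4 gCap-like ECs. The genes past the fold in gCap-like ECs numbered 1304 higher and 1670 lower with at least 50 UMIs, 2154 and 2859 with at least 10 UMIs, and 2922 and 3927 with no minimum. Thinning moved LEC-like Jak2 from -0.92 to -0.08 and artery-like Stat5b from 0.03 to 0.64. Depth limits LEC-like and artery-like ECs most, where Jak3, Stat5a and others had under 50 UMIs.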
